A study of Drosophila melanogaster with 12 samples.

Results

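Gene expression in embryos carrying the WDd allele of elav was set against that in embryos carrying an elav null allele, across all genes of the deposited count table. The comparison rests on 6 of the 12 libraries of the series, 3 of elav WDd and 3 of elav null, picked by the names of their columns. Every library was made from poly(A) RNA of whole Drosophila melanogaster embryos aged 20 to 24 h, collected around the end of embryogenesis. The elav WDd embryos carried elav[WDd], an allele that the labels do not describe further, and the elav null embryos carried elav[null]. Both kinds of mutant were recognised by the missing fluorescence of the FM7 KrGFP balancer X chromosome and by the shape of their autofluorescence. The other 6 libraries, given as values beside some results, were 3 of the elav[null] fne[null] double null and 3 of WT. WT was labelled elav[e5]/FM7, so these libraries also carried a mutant elav allele over FM7, and the column headers name that allele elav[null]. The sex of the embryos, the number of embryos in a library, dates and batches are not given. Whether the replicates are separate collections is not stated either, so the p-values cover only the spread among the libraries fitted, which may be technical.

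ELAV is an RNA-binding protein of neurons that acts on splicing and on the choice of poly(A) sites. In the fly its transcript is a classical marker of neurons that have left the cell cycle, and loss of the gene is lethal to the embryo. The title of the series concerns the multimerization of ELAV in these neuronal functions. The contrast therefore asks how embryos with the WDd allele differ from embryos without a working elav gene. Counts per gene show the amount of transcript, not its splice form or its 3′ end. Since whole embryos were used, fewer cells of a type and less RNA per cell cannot be told apart in any result below.

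Libraries held 72103076 to 74867886 counts in elav WDd and 22491041 to 83858934 in elav null. Thinned to 20000000 counts, they detected 13318 to 13967 genes in elav WDd and 10526 to 13863 in elav null, where replicates 1 and 3 stood at 11867 and 10526. Mitochondrial rRNA took 1.95% to 3.61% of counts in elav WDd and 0.650%, 9.54% and 10.1% in null 1 to 3. Across genes, replicates correlated at a Pearson r of 0.987 to 0.994 in elav WDd and 0.942 to 0.981 in elav null. The library labelled elav[null]_rep3 was the shallowest and stood apart in several genes named below, so each main result is given with and without it. Single libraries are written WDd 1 to WDd 3 and null 1 to null 3, by group and replicate number, and null 3 stands throughout for the library labelled elav[null]_rep3.

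The targeted gene was examined first. elav (CG4262, X: 509235 to 523226, dm6) stood at 145.5, 191.2 and 154.7 CPM (counts scaled to library size with TMM factors) in elav WDd and at 3.98, 4.78 and 6.27 CPM in elav null. The groups lay far apart (log2 fold change 5.04 ± 0.31 SE at an edgeR adjusted p = 8.74e-07). WT stood at 68.6, 109.5 and 160.5 CPM, and the double null at 4.99, 5.53 and 6.12 CPM. The elav span overlaps that of another gene, so the origin of the reads left in elav null is uncertain. The elav WDd libraries thus carried abundant elav transcript, and their level did not pass the test against WT.

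Both close relatives of elav were measured as well. Rbp9 (CG3151, 2L: 2954762 to 2968434), an RNA-binding protein gene of neurons and ovary, stood at 73.5, 92.7 and 81.5 CPM in elav WDd and 44.0, 35.7 and 14.5 CPM in elav null. It was higher in elav WDd, and the groups did not overlap (log2 fold change 1.39 ± 0.30 SE at an edgeR adjusted p = 0.00583). Without null 3 the log2 fold change was 1.04 (edgeR adjusted p = 0.00169), and with only the 6 libraries compared in the model the call was lost (1.35, edgeR adjusted p = 0.0524). fne (CG4396, X: 12917477 to 12950417), the other relative, likewise expressed in neurons, had 213.5, 276.0 and 271.7 CPM in elav WDd and 173.2, 242.7 and 36.2 CPM in elav null. Its range in elav WDd overlapped that of elav null (log2 fold change 0.75 ± 0.47 SE at an edgeR adjusted p = 0.32). Of the 3 elav null libraries, fne was low in null 3 alone, at a level near the 19.6, 30.6 and 19.8 CPM of the double null. The same library stood apart in 2 X-linked genes that describe the libraries. w (CG2759, X: 2790599 to 2796466), the eye pigment transporter gene, had 1.67, 0.883 and 0.254 CPM in elav WDd and 6.43, 14.7 and 109.4 CPM in elav null, and 89.2, 101.9 and 92.4 CPM in the double null. It was lower in elav WDd (log2 fold change −5.53 ± 0.95 SE at an edgeR adjusted p = 0.00117; −3.50 without that library). Setd3 (CG32732, X: 6958032 to 6968750), whose mammalian counterpart methylates actin, had 19.7, 17.3 and 18.8 CPM in elav WDd and 5.89, 4.54 and 0 CPM in elav null, and no counts in the double null. Its difference passed the test only without that library (log2 fold change 1.82, edgeR adjusted p = 0.000663, against 2.39 and 0.0889 with it).

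**Figure D1:**
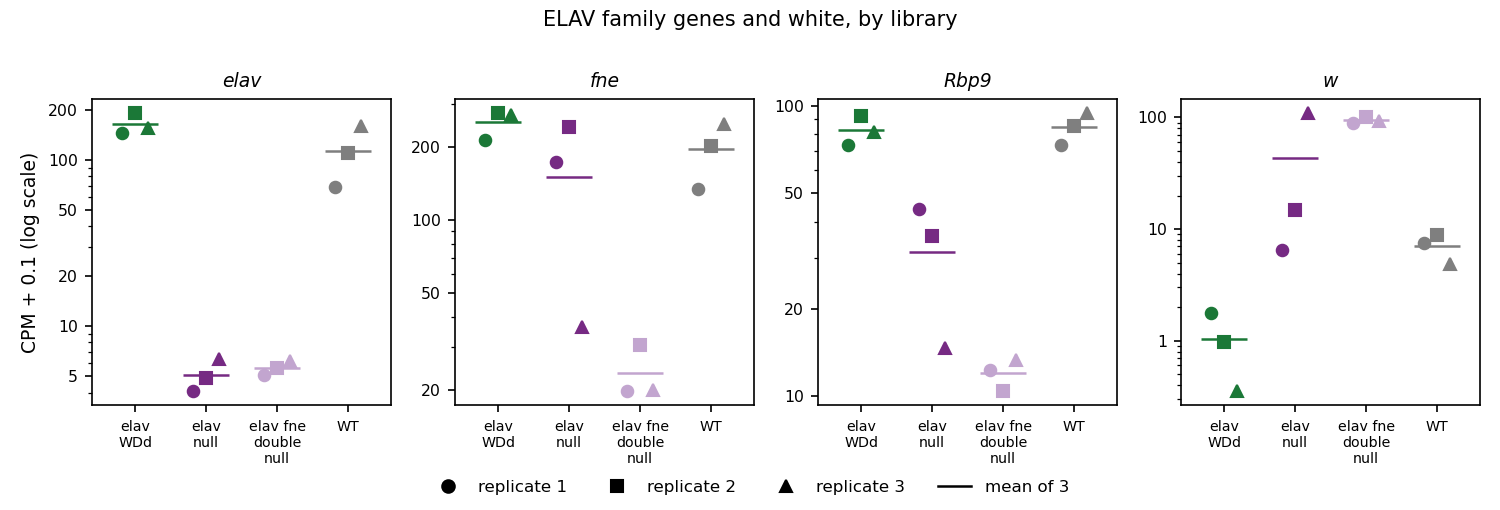
CPM of elav, fne, Rbp9 and w (each value plus 0.1, log axis) in every library of the 4 groups, with 1 point per library and a symbol for each replicate number. In elav, the 3 elav WDd libraries (145.5 to 191.2 CPM) lie above the 3 elav null libraries (3.98 to 6.27 CPM). The library labelled null 3 lies near the double null in fne and w.

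Across the genome, 1538 genes were higher (11%) and 818 lower (5.83%) in elav WDd than in elav null, of 14031 tested, so that 16.8% were called at an adjusted p under 0.05 in edgeR. An unadjusted p under 0.05 was found for 4148 genes. The called genes had a median log2 fold change of 1.33 among those higher and −1.13 among those lower, and all genes tested had a median of 0.07. The 2 groups did not overlap in 35.9% of genes, with elav WDd wholly above in 23.8% and wholly below in 12.1%. Without null 3 the test took in 14697 genes and called 1601 higher (10.9%) and 866 lower (5.89%). In that fit 1999 of the genes were called as before, which is 84.8% of the 12-library calls and 81.0% of the calls without the library, and 0 were called with the opposite sign. Without WDd 3, 957 genes were higher and 486 lower, and without WDd 1 and 2 in turn 528 and 535 were lower. The balance between directions depended on the scaling. Higher genes made up 65.3% of the calls with TMM factors, 56.1% with RLE factors (1331 higher and 1043 lower, median of all genes −0.03) and 53.3% in DESeq2 (1768 higher and 1552 lower).

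**Figure D2:**
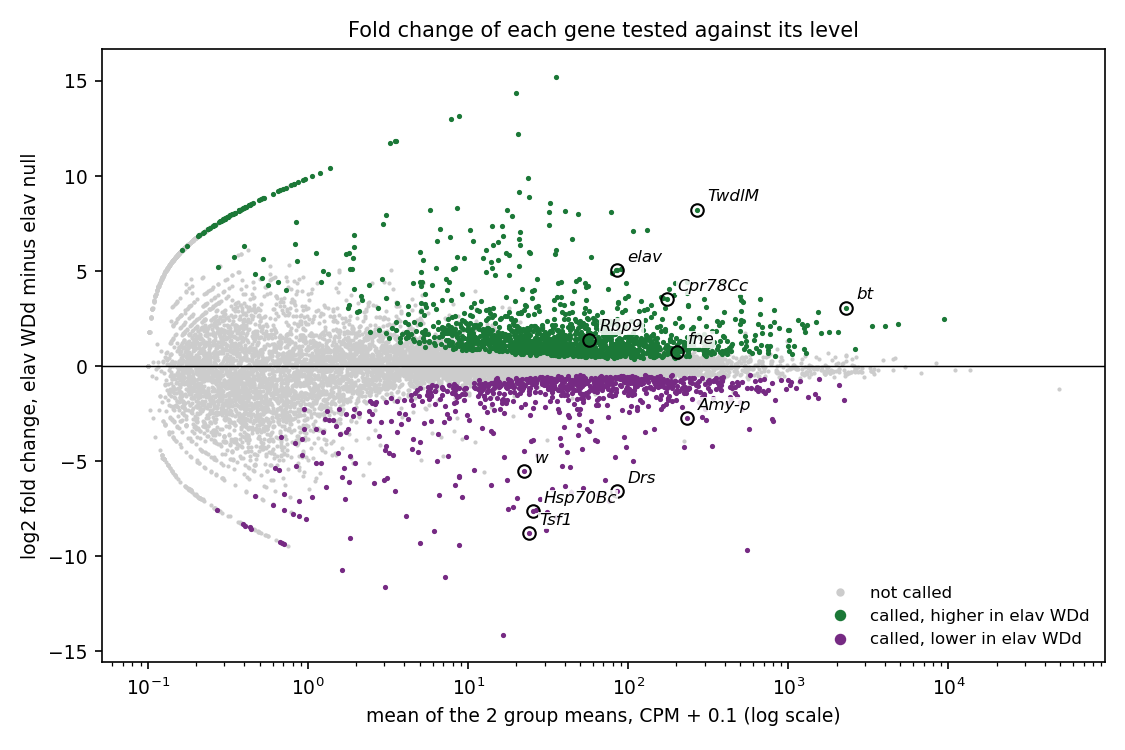
Log2 fold change of elav WDd over elav null against the mean CPM of the 6 libraries compared (plus 0.1, log axis) for the 14031 genes tested. Coloured points are the 1538 genes called higher and the 818 called lower in elav WDd, and the labelled points are named in the text. The curved rows of points at the left are genes without counts in 1 of the groups.

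Against WT, elav WDd differed in 9 higher and 19 lower genes (0.0641% and 0.135% of those tested, 0.2% in all), while elav null differed in 841 higher and 1638 lower genes (5.99% and 11.7%, 17.7% in all). These comparisons share the WT libraries, and each shares its mutant libraries with the contrast described here, so their counts are set side by side only. Called genes without any count in the 3 elav null libraries numbered 77, of which 56 had a mean under 1 CPM in elav WDd. Called genes without any count in the 3 elav WDd libraries numbered 11. A count of 3 corresponds to 0.0396 to 0.0433 CPM in elav WDd libraries and to 0.0338, 0.0660 and 0.139 CPM in null 1 to 3. Below that level a difference was not detectable at this depth.

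The genes with the highest called fold changes were mostly genes of the larval cuticle. Of the 10 highest with a symbol and at least 5 CPM, 6 encode structural cuticle proteins (TwdlM, TwdlD, TwdlB, TwdlY, Ccp84Aa and Cpr65Ea) and 2 belong to the insect-specific Osiris family (Osi20 and Osi15). TwdlM (CG5468, 3R: 26619118 to 26620224), a Tweedle cuticle protein gene, had 423.7, 526.3 and 658.5 CPM in elav WDd and 3.47, 1.36 and 0 CPM in elav null. Every elav WDd library was above 400 CPM and every elav null library below 4 CPM (log2 fold change 8.23 ± 0.96 SE at an edgeR adjusted p = 7.45e-05). Its WT libraries spread widely, at 980.7, 690.8 and 191.5 CPM. TwdlB had 196.8, 267.5 and 310.8 CPM in elav WDd and 3.20, 1.70 and 0 CPM in elav null (log2 fold change 7.17 ± 0.96 SE at an edgeR adjusted p = 0.000192), and it too ranged from 107.9 to 480.4 CPM within WT. Osi20 (CG15188, 3R: 6340095 to 6341424) had 0.505, 16.9 and 34.3 CPM in elav WDd and 0, 0 and 0 CPM in elav null. Taken against 3 counts over the elav null group, its mean was at least 900-fold higher in elav WDd, yet its lowest elav WDd library stood far below the others. WT spread as widely, at 31.4, 0.571 and 0.0754 CPM for Osi20 and 55.1, 5.92 and 0.211 CPM for Osi15. The calls of Osi20 and Osi15 were lost without null 1 (edgeR adjusted p = 0.0553 and 0.0609), and that of Osi15 also without WDd 3 (0.052). Ugt37A1, a UDP-glycosyltransferase gene of the kind that conjugates small molecules, had 34.8, 26.1 and 23.5 CPM in elav WDd and 0.641, 0.198 and 0 CPM in elav null (log2 fold change 6.39 ± 0.84 SE at an edgeR adjusted p = 0.000171). The remaining gene of the 10, nur, had 4.18, 45.8 and 53.3 CPM in elav WDd and 0, 0.352 and 0 CPM in elav null (log2 fold change 8.21 ± 1.80 SE at an edgeR adjusted p = 0.00628). Within WT, nur ranged from 2.01 to 104.2 CPM.

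The genes with the lowest called fold changes encode yolk and eggshell proteins, immune peptides, a heat shock protein and an iron carrier. Tsf1 (CG6186, X: 18387084 to 18390344), which encodes transferrin, an iron-binding protein of the haemolymph, had 0.216, 0.105 and 0 CPM in elav WDd and 12.6, 36.4 and 93.7 CPM in elav null. Its 3 elav WDd libraries lay below 1 CPM and its 3 elav null libraries above 12 CPM (log2 fold change −8.77 ± 0.91 SE at an edgeR adjusted p = 3.38e-05). AttB (CG18372, 2R: 14749223 to 14750165), an antibacterial attacin gene that may share reads with its near copy AttA, had 1.75, 0.883 and 0.620 CPM in elav WDd and 62.8, 102.2 and 283.0 CPM in elav null (log2 fold change −7.11 ± 0.61 SE at an edgeR adjusted p = 8.63e-06). BomBc2, a bomanin peptide gene of the Toll response, had 0.361, 0.224 and 0.324 CPM in elav WDd and 6.64, 38.7 and 139.3 CPM in elav null (log2 fold change −7.66 ± 1.03 SE at an edgeR adjusted p = 0.000193). The non-coding snRNA:7SKa had 0.188, 0.396 and 0.254 CPM in elav WDd and 3.20, 111.7 and 42.9 CPM in elav null (log2 fold change −7.54 ± 1.73 SE at an edgeR adjusted p = 0.00835), and it ranged from 2.27 to 692.8 CPM within the double null. Of the remaining 6, Vm26Aa, Yp1, Yp2, Yp3 and Act88F belong to adult tissues or the ovary, and Hsp70Bc to the heat shock genes. They are described with their lists.

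**Figure D3:**
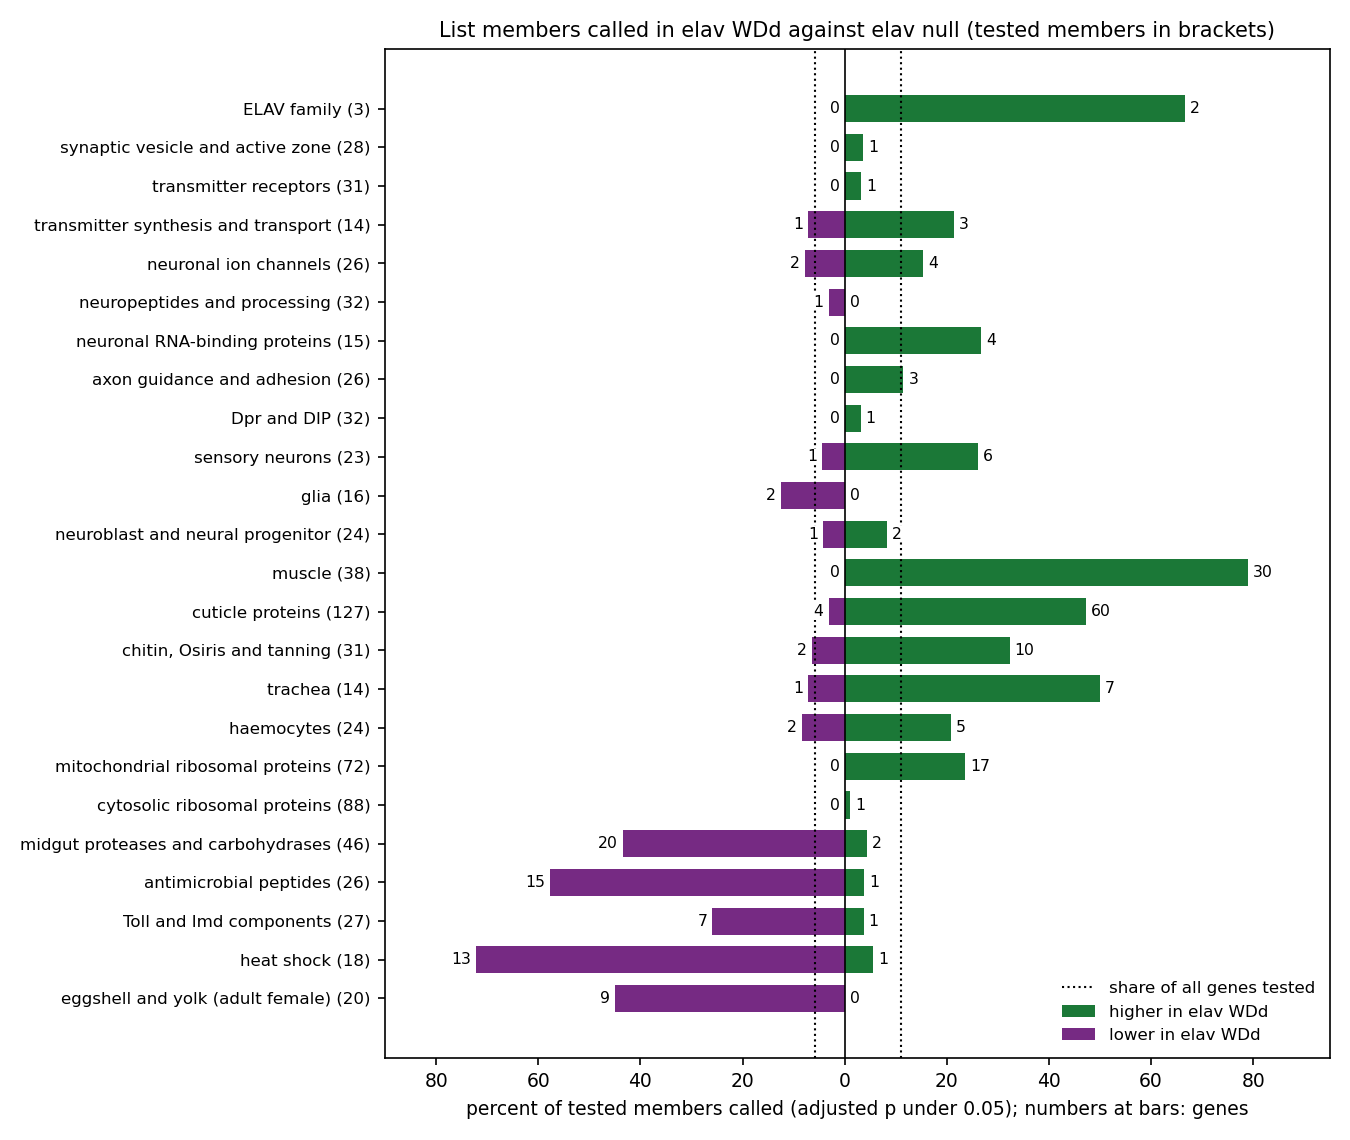
Percent of the tested members of 24 gene lists that were called higher (to the right) or lower (to the left) in elav WDd than in elav null, with the counts printed beside the bars. The dotted lines mark the shares over all genes tested, 11% higher and 5.83% lower. To the right, muscle (78.9%) and the ELAV family (66.7% of 3 genes) reach furthest, then trachea (50%) and cuticle proteins (47.2%). Heat shock and antimicrobial peptide lists reach furthest to the left.

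Muscle genes were higher in elav WDd. Of 38 muscle genes, all tested, 30 were called higher (78.9%, beside 11% of all genes tested), 0 lower and 8 were not called. All 38 had every elav WDd library above every elav null library, beside 23.8% of all genes tested. Their median log2 fold change was 2.06, against 0.07 over all genes tested. Summed over the list, the level was 64280, 65100 and 68330 CPM in elav WDd and 24330, 13560 and 5288 CPM in elav null, beside 5043, 8272 and 5016 CPM in the double null, with WT at 62340, 55880 and 64020 CPM. The sums were alike among the elav WDd libraries and spread several-fold among the elav null libraries, lowest in null 3. Without that library 31 were higher (median 1.70). Against WT, the list held 0 calls in elav WDd and 29 lower genes in elav null.

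All 5 sarcomere genes taken as muscle markers (Mhc, bt, sls, Actn and Mlc2) were called higher. bt (CG32019, 4: 724400 to 776474), which encodes projectin, a giant kinase of the sarcomere, had 3124, 5512 and 3713 CPM in elav WDd and 727.7, 551.2 and 180.5 CPM in elav null (log2 fold change 3.08 ± 0.45 SE at an edgeR adjusted p = 0.000338). Its lowest elav WDd library was above its highest elav null library by more than 4-fold. Mhc (CG17927, 2L: 16766566 to 16788766), the gene of muscle myosin heavy chain, had 6877, 9351 and 7585 CPM in elav WDd and 2831, 1933 and 433.1 CPM in elav null (log2 fold change 2.20 ± 0.55 SE at an edgeR adjusted p = 0.0134). Here the elav null libraries themselves differed, and replicate 3 was the lowest. GluRIIA (CG6992, 2L: 5555072 to 5558994), a glutamate receptor subunit on the muscle side of the neuromuscular junction, had 67.3, 69.2 and 73.4 CPM in elav WDd and 15.0, 7.70 and 8.26 CPM in elav null. It was among the tightest differences of the list (log2 fold change 2.75 ± 0.25 SE at an edgeR adjusted p = 1.27e-05; 2.61 without null 3). if, the alpha integrin subunit gene that anchors muscles to tendons, had 368.0, 407.8 and 392.8 CPM in elav WDd and 127.8, 79.1 and 93.2 CPM in elav null (log2 fold change 1.96 ± 0.20 SE at an edgeR adjusted p = 2.78e-05). SERCA, which pumps calcium back into the sarcoplasmic reticulum, had 2266, 2628 and 2514 CPM in elav WDd and 698.9, 475.4 and 286.1 CPM in elav null (log2 fold change 2.34 ± 0.28 SE at an edgeR adjusted p = 9.53e-05). Without null 2 the number called higher was 21, and with only the 6 libraries compared in the model it was 18.

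Genes of the larval cuticle were higher in elav WDd in large part. Of 134 cuticle protein genes, 127 were tested, with a median log2 fold change of 1.89. Among the 127, 60 were called higher (47.2%, beside 11% of all genes tested), 4 lower (3.15%, beside 5.83%) and 63 were not called. In 76 of the 127 every elav WDd library lay above every elav null library, and in 8 below. Over all genes tested these shares were 23.8% and 12.1%. The summed level was 13290, 11850 and 15200 CPM in elav WDd and 7757, 5276 and 8514 CPM in elav null. Without null 3, 58 were higher and 4 lower (median 1.81), and leaving out any library compared gave 53 to 62 higher. Against WT, 0 of the 127 were called in elav WDd, and 4 were higher and 61 lower in elav null.

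Cpr78Cc (CG7658, 3L: 21300580 to 21301171), a chitin-binding cuticle protein gene of the RR type, had 338.4, 253.5 and 367.8 CPM in elav WDd and 36.7, 25.8 and 21.5 CPM in elav null, and 384.4, 324.7 and 283.3 CPM in WT. The elav WDd libraries were about as high as WT, and the elav null libraries were more than 200 CPM lower (log2 fold change 3.51 ± 0.23 SE at an edgeR adjusted p = 1.06e-06). Its neighbour Cpr78Cb had 103.7, 83.2 and 113.2 CPM in elav WDd and 8.0, 8.76 and 9.89 CPM in elav null (log2 fold change 3.50 ± 0.23 SE at an edgeR adjusted p = 1.11e-06). Lcp65Ag1, a larval cuticle protein gene with near-identical copies that may share its reads, had 735.8, 590.5 and 894.8 CPM in elav WDd and 52.3, 25.1 and 28.8 CPM in elav null (log2 fold change 4.38 ± 0.33 SE at an edgeR adjusted p = 3.04e-06). The members called lower in elav WDd were Cpr49Ac, TwdlO, Cpr47Eb and Cpr65Ay, the last named after its values were seen. TwdlO (CG6452, 3R: 26625932 to 26626738) had 71.2, 83.3 and 83.7 CPM in elav WDd and 391.3, 203.2 and 465.6 CPM in elav null (log2 fold change −2.15 ± 0.28 SE at an edgeR adjusted p = 0.000151), and so moved against the Tweedle genes named above. Cpr49Ac had 1.80, 2.08 and 3.16 CPM in elav WDd and 19.2, 17.6 and 39.0 CPM in elav null (log2 fold change −3.42 ± 0.52 SE at an edgeR adjusted p = 0.000452).

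Enzymes that build, trim and harden the cuticle moved in the same direction less uniformly. Of 31 chitin, Osiris and tanning genes, all tested, 10 were higher (32.3%, beside 11% of all genes tested) and 2 lower (6.45%, beside 5.83%). The other 19 were not called (median of the list 0.96), and 14 were higher and 1 lower without null 3. Cht5 (CG9307, 3R: 13767549 to 13770732), a chitinase gene of the moult, had 184.4, 127.6 and 175.0 CPM in elav WDd and 7.06, 5.17 and 2.09 CPM in elav null (log2 fold change 5.06 ± 0.76 SE at an edgeR adjusted p = 0.000446). e, which encodes the beta-alanyl-dopamine synthase of cuticle tanning, had 18.4, 24.3 and 23.4 CPM in elav WDd and 7.92, 4.87 and 5.01 CPM in elav null (log2 fold change 1.89 ± 0.27 SE at an edgeR adjusted p = 0.000335). Cda4, a chitin deacetylase gene, had 154.1, 151.1 and 164.9 CPM in elav WDd and 62.7, 48.3 and 62.0 CPM in elav null (log2 fold change 1.44 ± 0.16 SE at an edgeR adjusted p = 4.82e-05). t, which encodes the hydrolase that reverses the reaction of e, was lower at 10.2, 11.3 and 9.53 CPM in elav WDd and 30.1, 24.8 and 23.3 CPM in elav null (log2 fold change −1.33 ± 0.23 SE at an edgeR adjusted p = 0.00122). The other lower call, of the chitin-binding tracheal protein gene Gasp (−0.80), was lost without WDd 1, 2 or 3 or null 3 (−0.89 to −0.55). Ddc and ple, which make dopamine for tanning as well as for neurons, were higher (log2 fold change 1.4 ± 0.32 SE at an edgeR adjusted p = 0.00876 for Ddc; 1.09 and 0.0247 for ple, lost without null 2 at 0.92).

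**Figure D4:**
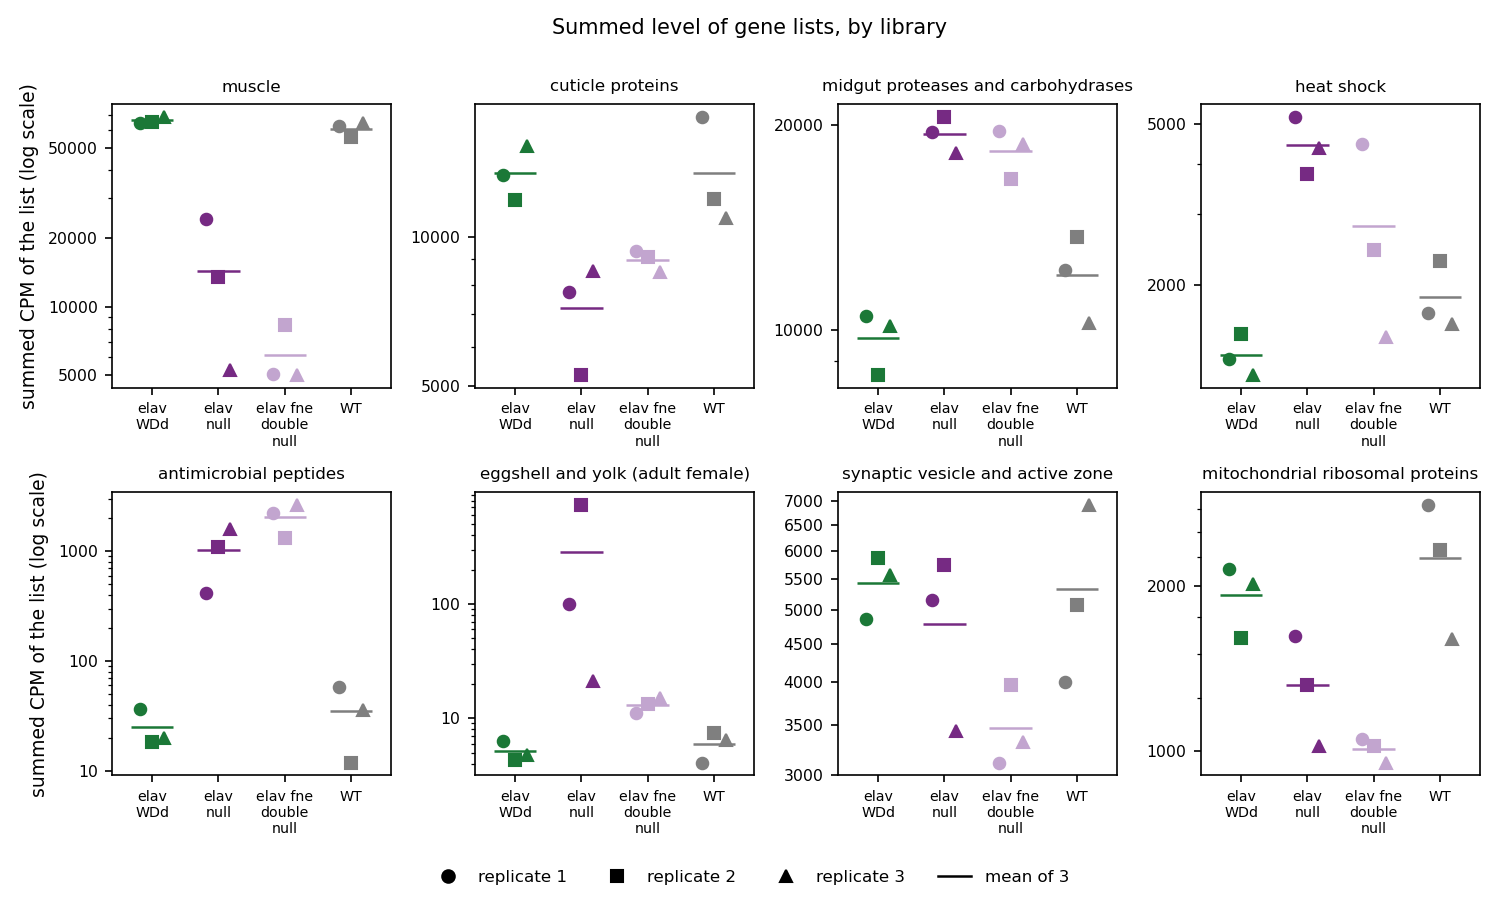
Summed CPM of the members of 8 gene lists (log axis) in every library of the 4 groups, with 1 point per library and a symbol for each replicate number. The muscle sums of the 3 elav WDd libraries (64280 to 68330 CPM) lie above those of the elav null libraries (5288 to 24330 CPM), and the heat shock sums lie below (1200 to 1518 CPM in elav WDd, 3770 to 5219 CPM in elav null).

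Heat shock genes were lower in elav WDd. These genes encode chaperones that hold or refold damaged proteins and are switched on by heat and other stress through the factor Hsf. Of 20 genes, 18 were tested. Called lower were 13 (72.2%, beside 5.83% of all genes tested), 1 was higher (5.56%, beside 11%) and 4 were not called. The median log2 fold change was −3.83. The summed level was 1311, 1518 and 1200 CPM in elav WDd and 5219, 3770 and 4366 CPM in elav null, beside 4465, 2442 and 1491 CPM in the double null, with WT at 1706, 2293 and 1600 CPM. Without null 3, 13 were lower and 0 higher of 19 tested (median −3.43). Leaving out any library compared kept the number called lower at 12 or 13. Against WT, 13 of the 18 were higher and 1 lower in elav null, and 0 were called in elav WDd.

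Hsp23 (CG4463, 3L: 9381882 to 9382765), a small heat shock protein gene, had 15.8, 6.82 and 6.25 CPM in elav WDd and 244.0, 145.8 and 160.3 CPM in elav null. The highest elav WDd library was far below the lowest elav null library, and the level in WT, 12.1, 13.9 and 6.35 CPM, was close to that of elav WDd (log2 fold change −4.25 ± 0.52 SE at an edgeR adjusted p = 0.000106). Hsp26, of the same family, had 36.7, 58.2 and 7.19 CPM in elav WDd and 688.2, 492.4 and 710.2 CPM in elav null (log2 fold change −4.21 ± 0.69 SE at an edgeR adjusted p = 0.000847). Hsp27 had 14.2, 44.7 and 5.06 CPM in elav WDd and 271.2, 185.8 and 242.7 CPM in elav null (log2 fold change −3.45 ± 0.83 SE at an edgeR adjusted p = 0.0111), a call lost without WDd 1 (−3.25, edgeR adjusted p = 0.0539). Hsp68 (CG5436, 3R: 24055080 to 24057310), an inducible member of the Hsp70 family, had 25.4, 24.5 and 16.8 CPM in elav WDd and 526.3, 389.8 and 345.4 CPM in elav null (log2 fold change −4.24 ± 0.56 SE at an edgeR adjusted p = 0.000172). The Hsp70 copies, which are near-identical and may share reads, were lower too, among them Hsp70Bc at 0.505, 0.0659 and 0.197 CPM in elav WDd and 75.0, 56.0 and 19.6 CPM in elav null (log2 fold change −7.62 ± 0.94 SE at an edgeR adjusted p = 0.000106). Hsp70Bbb had 3 counts in all over the elav WDd libraries and 9.67, 9.77 and 10.1 CPM in elav null.

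The constitutive chaperone Hsp83, the fly Hsp90, differed less, with 321.3, 490.7 and 321.2 CPM in elav WDd and 1563, 1080 and 1201 CPM in elav null (log2 fold change −1.76 ± 0.36 SE at an edgeR adjusted p = 0.00367). DnaJ-1, a co-chaperone of Hsp70, had 89.1, 83.5 and 55.8 CPM in elav WDd and 499.4, 444.7 and 653.3 CPM in elav null (log2 fold change −2.81 ± 0.39 SE at an edgeR adjusted p = 0.000251), and stv, another co-chaperone gene, was lower by a log2 fold change of −1.29 ± 0.26 SE (edgeR adjusted p = 0.00345). The transcript of Hsf itself did not pass the test (−0.23, edgeR adjusted p = 0.402), nor did Hsp67Bc (−0.65, 0.0882), CG4456 (−0.33, 0.949) and l(2)efl (0.43, 0.663). The 1 gene called higher was the mitochondrial chaperonin gene Hsp60A (log2 fold change 0.78 ± 0.24 SE at an edgeR adjusted p = 0.0421). Its call was lost with each library left out other than null 1 (0.50 to 0.83), where 2 members were higher.

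Antimicrobial peptide genes were also lower in elav WDd. The fat body secretes these peptides into the blood when the Toll or Imd pathway is active. Of 34 genes, 26 were tested. Called lower were 15 (57.7%, beside 5.83% of all genes tested), 1 was higher (3.85%, beside 11%) and 10 were not called. The median log2 fold change was −4.67. The 8 that were not tested reached at most 0.389 CPM in elav WDd and 2.46 CPM in elav null. The summed level was 36.8, 18.3 and 20 CPM in elav WDd and 417.6, 1100 and 1589 CPM in elav null, beside 58.1, 11.9 and 35.8 CPM in WT. Without null 3, 14 of 29 were lower and 1 higher (median −3.33), and leaving out any library compared gave 13 to 16 lower.

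Drs (CG10810, 3L: 3369556 to 3369942), the antifungal peptide drosomycin of the Toll pathway, had 2.12, 1.74 and 1.44 CPM in elav WDd and 68.9, 218.1 and 219.2 CPM in elav null. The elav WDd libraries stayed within 3 CPM and no elav null library was below 60 CPM (log2 fold change −6.58 ± 0.60 SE at an edgeR adjusted p = 1.38e-05). BomBc1, another bomanin gene, had 1.56, 0.462 and 1.01 CPM in elav WDd and 64.6, 97.2 and 77.6 CPM in elav null (log2 fold change −6.30 ± 0.54 SE at an edgeR adjusted p = 8.52e-06). The 1 member called higher was Drsl2 (CG32279, 3L: 3314349 to 3314681), a drosomycin-like gene, with 6.17, 3.53 and 7.20 CPM in elav WDd and 0, 0.0881 and 0 CPM in elav null (log2 fold change 7.49 ± 1.57 SE at an edgeR adjusted p = 0.00472). Among 27 components of the Toll and Imd pathways 1 was higher (3.7%, beside 11% of all genes tested) and 7 lower (25.9%, beside 5.83%). SPE, the protease that cleaves the Toll ligand, had 10.9, 7.99 and 12.5 CPM in elav WDd and 34.3, 70.8 and 160.2 CPM in elav null (log2 fold change −3.08 ± 0.48 SE at an edgeR adjusted p = 0.000574). nec, a serpin gene that restrains the same cascade, and Rel, the transcription factor of the Imd pathway, were lower by log2 fold changes of −1.40 ± 0.28 SE and −0.96 ± 0.22 SE (edgeR adjusted p = 0.00367 and 0.00892). Dredd, the caspase that activates Rel, was higher at 32.6, 32.0 and 38.0 CPM in elav WDd and 12.1, 13.5 and 10.3 CPM in elav null (log2 fold change 1.51 ± 0.17 SE at an edgeR adjusted p = 6.31e-05). The number of lower components was 4 without WDd 2, without WDd 3, or without null 3, where 3 were higher. Without WDd 2, 2 were higher.

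**Figure D5:**
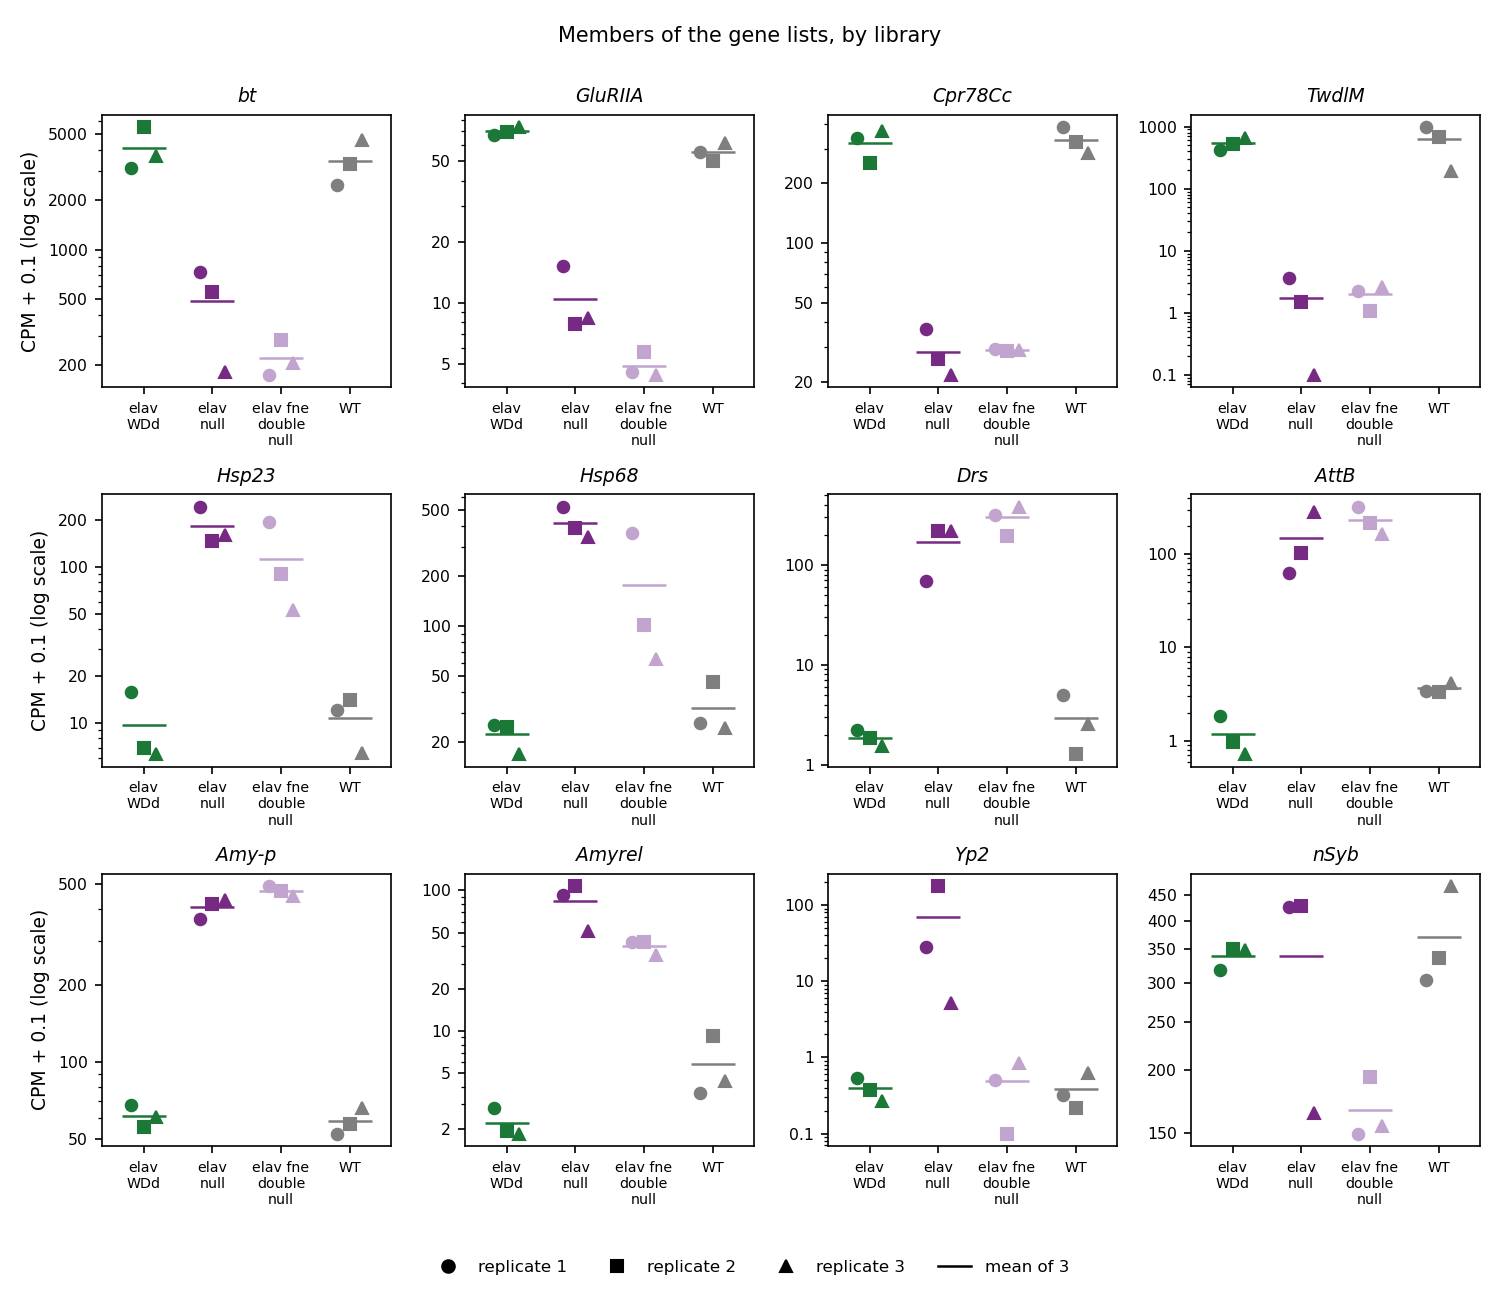
CPM of 12 genes (each value plus 0.1, log axis) in every library of the 4 groups, with 1 point per library and a symbol for each replicate number. bt, GluRIIA, Cpr78Cc and TwdlM are higher in elav WDd than in elav null, and Hsp23, Hsp68, Drs, AttB, Amy-p, Amyrel and Yp2 are lower, without overlap. The neuronal gene nSyb overlaps between these groups.

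Digestive enzyme genes of the midgut were lower in elav WDd, with small spread between replicates. Of 46 midgut protease and carbohydrase genes, all tested, 20 were called lower (43.5%, beside 5.83% of all genes tested). Higher calls numbered 2 (4.35%, beside 11%), and 24 genes were not called (median of the list −0.66). The summed level was 10470, 8582 and 10130 CPM in elav WDd and 19520, 20560 and 18200 CPM in elav null. Without null 3, 21 were lower and 2 higher (median −0.73), and each other library left out gave 18 to 21 lower. Amy-p (CG18730, 2R: 17118636 to 17120303), an alpha-amylase gene that may share reads with its near copy Amy-d, had 67.5, 55.2 and 60.8 CPM in elav WDd and 364.8, 419.3 and 434.1 CPM in elav null. The elav null libraries were all above 350 CPM, the elav WDd libraries all below 70 CPM, and WT stood at 52.2, 56.9 and 66.0 CPM (log2 fold change −2.73 ± 0.16 SE at an edgeR adjusted p = 7.6e-07). Amyrel, a more distant amylase relative, had 2.74, 1.83 and 1.76 CPM in elav WDd and 93.0, 107.5 and 51.4 CPM in elav null (log2 fold change −5.31 ± 0.41 SE at an edgeR adjusted p = 3.34e-06). The higher members were Try29F, a trypsin-like protease gene, at 50.8, 45.6 and 47.4 CPM in elav WDd and 2.23, 1.98 and 5.11 CPM in elav null (log2 fold change 3.98 ± 0.60 SE at an edgeR adjusted p = 0.00046), and Npc2b, a sterol-binding protein gene (1.01), whose call was lost without WDd 1 or 3 or null 2 (0.80 to 0.98).

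Lists of metabolic and hormonal genes held different shares of calls. Beside 16.8% of all genes tested, 10.5% of the glycolysis genes were called, 23.8% of the nutrient response and lipid use genes, 13.8% of the ecdysone response genes, 42.1% of the iron and metal storage genes and 9.52% of the stress genes. Of 19 glycolysis genes 2 were higher and 0 lower. Gpdh1 (CG9042, 2L: 5943643 to 5948968), glycerol-3-phosphate dehydrogenase, had 953.8, 794.2 and 1057 CPM in elav WDd and 286.1, 284.1 and 314.3 CPM in elav null, with libraries of each group close together (log2 fold change 1.67 ± 0.17 SE at an edgeR adjusted p = 2.91e-05). Its mitochondrial partner in the glycerophosphate shuttle, Gpo1, had 410.1, 369.6 and 436.7 CPM in elav WDd and 129.5, 101.4 and 64.3 CPM in elav null (log2 fold change 2.04 ± 0.22 SE at an edgeR adjusted p = 4.18e-05). Without null 1, 4 glycolysis genes were higher, and without null 3, 1 was lower. Of 21 nutrient response and lipid use genes tested, 1 was higher and 4 lower. The lower ones included bmm, the main triglyceride lipase of the fat body (log2 fold change −1.35 ± 0.21 SE at an edgeR adjusted p = 0.000498), yip2, an acetyl-CoA acyltransferase gene (−1.49, 0.000304), and Hnf4, a nuclear receptor gene of lipid use (−0.79, 0.00369). The higher one was S6k, a kinase gene of TOR signalling (0.56, 0.0138), a call lost without WDd 3, and 2 members were higher without null 1.

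Of 29 ecdysone response genes 4 were higher and 0 lower. Eip74EF, an early gene of the steroid hormone, had 42.5, 84.0 and 73.8 CPM in elav WDd and 6.87, 11 and 17.7 CPM in elav null (log2 fold change 2.50 ± 0.34 SE at an edgeR adjusted p = 0.000206). The others were MsrA (1.70, 0.00369), Hr39 (0.53, 0.0286) and, named after its values were seen, the ecdysteroid synthesis gene spok. The call of Hr39 was lost without WDd 1 or 3 and without null 1 or 3 (0.44 to 0.55). Without WDd 3, 2 were higher, and without null 1, 1 was lower. Of 19 iron and metal storage genes 4 were higher and 4 lower. The ferritin genes Fer1HCH and Fer2LCH were lower together with Tsf1 (−0.80 and −0.71, edgeR adjusted p = 0.00386 and 0.0061), while mfrn, a mitochondrial iron importer gene, and the multicopper oxidase gene Mco1 were higher (0.69 and 0.95, 0.00536 and 0.012). The number higher was 2 without WDd 1. Of 22 JAK-STAT and JNK stress genes 21 were tested, and 0 were higher and 2 lower, Gadd45 (−1.45, 0.00319) and the translation inhibitor gene Thor (−1.13, 0.00534). Without null 3 the stress list held 1 higher and 3 lower genes.

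Genes of neurons, the cells in which ELAV acts, did not hold more calls than all genes tested when 9 lists were pooled. Some single lists did. Called were 30.4% of the sensory neuron genes and 28.6% of the genes of transmitter synthesis and transport. The shares were 26.7% of the neuronal RNA-binding protein genes and 23.1% of the ion channel genes. The remaining neuronal lists held 3.12% to 11.5%. Over 9 neuronal lists together, 231 genes, 226 were tested and 23 were higher and 5 lower, so that 12.4% were called, beside 16.8% of all genes tested. Their median log2 fold change was 0.12. Without null 3, 19 were higher and 12 lower (13.7%, median −0.02). Without WDd 3, 10 were higher and 4 lower (6.19%), in a fit that called 1443 genes in all. RLE factors gave 15 higher and 7 lower. DESeq2 gave 24 higher and 14 lower (16.8%), but it called 3320 genes in all, against 2356 in edgeR. None of the 6 neuronal markers (nSyb, Syt1, brp, para, ChAT and Snap25) was called in edgeR with or without that library. nSyb (CG17248, 3L: 1630348 to 1637752), the synaptic vesicle SNARE of neurons, had 317.9, 351.0 and 349.6 CPM in elav WDd and 425.6, 427.8 and 164.2 CPM in elav null (log2 fold change 0.00 ± 0.30 SE at an edgeR adjusted p = 1; −0.34 without null 3). That library alone was low, and it drew the elav null mean down to that of elav WDd. Syt1, the calcium sensor of release, had 339.2, 391.4 and 401.2 CPM in elav WDd and 352.4, 414.4 and 191.8 CPM in elav null (log2 fold change 0.24 ± 0.27 SE at an edgeR adjusted p = 0.607). Snap25, another SNARE, had 22.8, 22.8 and 22.3 CPM in elav WDd and 23.6, 40.3 and 10.1 CPM in elav null, and 34.7, 43.1 and 44.2 CPM in WT (log2 fold change −0.12 ± 0.36 SE at an edgeR adjusted p = 0.867).

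Of 30 synaptic vesicle and active zone genes 28 were tested, and 1 was higher and 0 lower (median 0.11, and −0.05 without null 3). The call, of the latrophilin gene Cirl (log2 fold change 0.74 ± 0.23 SE at an edgeR adjusted p = 0.0408), was lost without WDd 2 or 3 and without null 1, 2 or 3 (0.70 to 0.75), and without null 1 another member was lower. Of 31 transmitter receptor genes tested 1 was higher, the octopamine receptor gene Octbeta2R (CG33976, 3R: 12550625 to 12595725), with 66.9, 56.3 and 65.6 CPM in elav WDd and 11.6, 19.2 and 12.3 CPM in elav null. Its groups were far apart with every library left in or out (log2 fold change 2.13 ± 0.27 SE at an edgeR adjusted p = 0.000122; 2.02 without null 3). Of 14 genes of transmitter synthesis and transport 3 were higher (Ddc, ple and the choline transporter gene ChT) and 1 lower, Hn, the phenylalanine hydroxylase gene, which also serves eye pigment synthesis (log2 fold change −1.02 ± 0.22 SE at an edgeR adjusted p = 0.00593). ChT (0.70, 0.0339) lost its call without WDd 1 or 3, null 1 or null 3.

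Of 26 ion channel genes tested, 4 were higher and 2 lower (median 0.41). Irk2 (CG4370, 3R: 23513617 to 23519445), an inward rectifier potassium channel gene, had 215.4, 173.3 and 208.3 CPM in elav WDd and 64.7, 34.8 and 33.9 CPM in elav null. It was higher in each elav WDd library by more than 100 CPM (log2 fold change 2.16 ± 0.24 SE at an edgeR adjusted p = 6.4e-05). SK, the calcium-activated potassium channel gene, had 143.2, 192.0 and 165.1 CPM in elav WDd and 54.8, 66.7 and 84.9 CPM in elav null (log2 fold change 1.28 ± 0.28 SE at an edgeR adjusted p = 0.00672). KCNQ was higher as well (0.70, 0.00644), and Irk3 and Teh3, an auxiliary subunit gene of the sodium channel, were lower (−0.87 and −1.49, edgeR adjusted p = 0.0076 and 0.025). Teh3 lost its call without WDd 1 or 3 or null 3 (−1.43 to −1.24). Of 23 sensory neuron genes 6 were higher and 1 lower. nompC, the mechanically gated channel of touch and hearing organs, had 39.0, 52.7 and 43.9 CPM in elav WDd and 20.3, 14.9 and 15.3 CPM in elav null (log2 fold change 1.42 ± 0.23 SE at an edgeR adjusted p = 0.000866), and the TRP channel genes pain and pyx, of heat-sensing neurons, were higher (0.86 and 1.21, 0.00157 and 0.00287). The number higher was 3 without WDd 3 or null 2. The photoreceptor opsin gene Rh6 was lower (−1.0, 0.0168), a call lost without WDd 1 or 2, and 2 members were lower without null 1 or null 3.

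Of 34 neuropeptide and processing genes 32 were tested, and 0 were higher and 1 lower, Tk (CG14734, 3R: 11994175 to 12005473), the tachykinin gene. Tk had 7.57, 7.19 and 8.08 CPM in elav WDd and 24.9, 30.1 and 20.4 CPM in elav null, without overlap (log2 fold change −1.73 ± 0.21 SE at an edgeR adjusted p = 0.000111). Without null 3, 7 were lower (sNPF, Tk, Nplp1, Pal2, Ms, Proc and Dh44) and the median moved from −0.20 to −0.48. Of these, Nplp1, named after its values were seen, had 69.9, 67.5 and 74.0 CPM in elav WDd and 141.0, 142.0 and 27.6 CPM in elav null. Its elav WDd level lay between that of null 1 and 2 and that of null 3. Without null 2, 1 neuropeptide gene was higher.

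Of 15 neuronal RNA-binding protein genes outside the ELAV family 4 were higher and 0 lower, including the splicing factor genes mbl and bru2 and the KH-domain gene qkr58E-3 (0.86, 0.56 and 0.48, edgeR adjusted p = 0.0189, 0.0303 and 0.0337). Without WDd 3 or null 1, 0 were higher, and without WDd 1 or null 2, 2 were. Without null 1 or null 3, 1 was lower. Of 26 axon guidance and adhesion genes 3 were higher and 0 lower, the netrin gene NetA and the adhesion receptor genes Nrg and Lar (1.11, 0.69 and 1.06, 0.00473, 0.0294 and 0.0322). Only 1 was higher without WDd 3 or null 1, and the call of Lar was lost when any library compared other than null 2 was left out (0.79 to 1.10). Nrg, whose neuronal splice form depends on ELAV, was also the 1 gene called of 11 described ELAV targets (9.09%, beside 16.8% of all genes tested). The call of Nrg was lost without WDd 3, null 1 or null 2 (0.57 to 0.67). Of 32 genes of the Dpr and DIP surface families 1 was higher, dpr10 (0.75, 0.0109), a call lost without WDd 3.

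Among other cells of the nervous system, 12.5% of the neuroblast genes and 12.5% of the glial genes were called, beside 16.8% of all genes tested. Of 24 neuroblast and neural progenitor genes 2 were higher, the cell cycle phosphatase gene stg and the transcription factor gene grh (1.47 and 0.73, edgeR adjusted p = 0.0482 and 0.0221), and 1 lower, insc (−0.93, 0.0344). The marker ase stood at 5.52, 2.79 and 3.51 CPM in elav WDd and 3.50, 7.92 and 26 CPM in elav null, and its difference did not pass the test (log2 fold change −1.65 ± 0.54 SE at an edgeR adjusted p = 0.0529; −0.54 without null 3). That library alone was near the 26, 32.6 and 26.2 CPM of the double null. The markers wor, mira and dpn were not called either (−1.335, −0.538 and −0.191, edgeR adjusted p = 0.115, 0.325 and 0.906). Without null 3 their log2 fold changes were −0.272, −0.026 and 0.65. In the whole list, the number of higher genes was 0 without null 1 and 1 without WDd 1, 2 or 3 or null 2. The number of lower ones was 0 without WDd 1, 2 or 3 or null 3, 2 without null 2 and 3 without null 1. The 15 Enhancer of split genes, targets of Notch, held 0 calls, with medians of 0.14 and, without null 3, 0.68. Of 16 glial genes 0 were higher and 2 lower, the barrier transporter gene Mdr65 (−0.63, 0.0233) and Gs2, a glutamine synthetase gene (−0.47, 0.0499). Neither was called without WDd 1, 2 or 3 or null 1, and without null 2, 1 was lower and 1 other gene higher. The glial marker repo had 21.7, 23 and 22.7 CPM in elav WDd and 25.2, 23.9 and 37.3 CPM in elav null (log2 fold change −0.36 ± 0.19 SE at an edgeR adjusted p = 0.246).

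Higher calls made up 20.8% of the haemocyte genes, 23.6% of the mitochondrial ribosomal protein genes and 3.57% of the respiratory chain genes tested, beside 11% of all genes tested. Of 15 genes of the trachea, the branched tubes that carry air, 14 were tested and 7 were higher and 1 lower (median 0.77), among them emp, a scavenger receptor gene, at 149.3, 134.7 and 169.4 CPM in elav WDd and 59.6, 48.9 and 58.6 CPM in elav null (log2 fold change 1.44 ± 0.15 SE at an edgeR adjusted p = 4.18e-05), and pot, at 154.7, 166.5 and 166.2 CPM in elav WDd and 96.0, 61.0 and 44.2 CPM in elav null (log2 fold change 1.27 ± 0.24 SE at an edgeR adjusted p = 0.00258). The number higher was 9 without null 3 and 4 without WDd 3 or null 2. The lower one, Nach (−2.84, 0.0316), lost its call without WDd 1, 2 or 3 or null 3. Of 24 haemocyte genes 5 were higher and 2 lower. The prophenoloxidase gene PPO1, a marker of crystal cells, had 4.73, 10.7 and 13.5 CPM in elav WDd and 0.732, 1.58 and 1.07 CPM in elav null (log2 fold change 3.10 ± 0.70 SE at an edgeR adjusted p = 0.00791), whereas the phagocytic receptor genes Sr-CI and NimC1 were lower (−1.09 and −0.78, 0.00112 and 0.011), and NimC1 lost its call without WDd 2. The number higher was 2 without WDd 3 and 1 without null 2. The haemocyte markers Hml, Pxn and crq were not called (0.315, 0.456 and −0.155, edgeR adjusted p = 0.527, 0.174 and 0.591). Without null 3, Hml was called higher (0.774, edgeR adjusted p = 0.0394).

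Of 73 mitochondrial ribosomal protein genes 72 were tested, and 17 were higher and 0 lower (median 0.64). In 37 of the 72 every elav WDd library lay above every elav null library, beside 23.8% of all genes tested. mRpS5 had 66.5, 60.3 and 64.0 CPM in elav WDd and 39.7, 37.0 and 38.4 CPM in elav null (log2 fold change 0.73 ± 0.15 SE at an edgeR adjusted p = 0.00371). The number higher depended on single libraries, at 5 without WDd 1 and 6 without WDd 3, and 1 gene was lower without null 3. By contrast, of 88 genes tested from the cytosolic ribosomal protein list 1 was higher and 0 were lower (median −0.23), with 1 lower without null 2. The higher one was RpLP0-like (1.62, 0.000359), a gene named for its likeness to RpLP0. Of 84 respiratory chain genes tested 3 were higher (UQCR-11, ND-AGGG and ND-MLRQ, with log2 fold changes of 1.21, 1.21 and 1.07) and 0 lower. The number higher was 1 without WDd 1, 5 without null 1 and 6 without null 2, and 1 was lower without null 1 or null 3. ND-MLRQ lost its call without WDd 1 or 3 and without null 1 or 3 (0.87 to 1.06).

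Transcripts of adult tissues were present in the elav null libraries, mostly in null 2 and least in null 3. Of 21 eggshell and yolk genes, which the adult ovary and fat body express, 20 were tested. In elav WDd 9 were lower (45%, beside 5.83% of all genes tested) and 0 higher. The summed level was 6.30, 4.29 and 4.78 CPM in elav WDd and 100.9, 741.2 and 21.0 CPM in elav null, against 4.09, 7.46 and 6.43 CPM in WT. In the double null it was 11.2, 13.2 and 14.9 CPM. Most of the elav null level came from null 2, and null 3 lay nearest the double null. Vm26Aa (CG9048, 2L: 5959596 to 5960340), a vitelline membrane gene, had no counts in elav WDd and 5.75, 88.5 and 4.50 CPM in elav null. Taken against 3 counts over the elav WDd group, its mean was at least 2140-fold lower in elav WDd. Yp2, a yolk protein gene, had 0.433, 0.277 and 0.169 CPM in elav WDd and 28.3, 178.1 and 5.06 CPM in elav null (log2 fold change −7.91 ± 1.38 SE at an edgeR adjusted p = 0.00133). Yp1 had 0.0866, 0.198 and 0.395 CPM in elav WDd and 13.2, 99.4 and 1.16 CPM in elav null (log2 fold change −7.38 ± 1.38 SE at an edgeR adjusted p = 0.00212), and Yp3 had 0.577, 0.369 and 0.395 CPM in elav WDd and 20.9, 143.6 and 3.02 CPM in elav null (log2 fold change −6.96 ± 1.10 SE at an edgeR adjusted p = 0.000614). All 3 yolk protein genes were highest in null 2. Leaving out 1 library gave 7 to 12 lower genes, and the model with only the 6 libraries compared gave 4. Of 16 genes of adult flight muscle and eye 15 were tested. Called higher was 1 (6.67%, beside 11% of all genes tested), and 3 were lower (20%, beside 5.83%). The higher one was Obp56d, an odorant-binding protein gene present in every group. It had 115.7, 81.6 and 124.2 CPM in elav WDd, 45.36, 30.95 and 28.88 CPM in elav null and 111.6, 70.13 and 64.41 CPM in WT. Act88F, the flight muscle actin gene, had 0.433, 0.171 and 0.381 CPM in elav WDd and 12.7, 105.2 and 2.0 CPM in elav null (log2 fold change −6.93 ± 1.55 SE at an edgeR adjusted p = 0.00709), a call lost without null 2 (−4.49, edgeR adjusted p = 0.0654). Without null 2, 1 gene of this list was lower and 2 were higher, and without null 3, 6 were lower. The part of these transcripts in the other differences was not tested.

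Genes of sex and dosage compensation bear on the unknown makeup of the groups. roX2, a non-coding RNA that coats the male X chromosome, had 19.5, 20.8 and 25.4 CPM in elav WDd and 37.0, 47.3 and 59.5 CPM in elav null (log2 fold change −1.13 ± 0.24 SE at an edgeR adjusted p = 0.00556), while WT had 8.61, 7.83 and 4.90 CPM. roX1, its partner, had 709.5, 739.3 and 756.3 CPM in elav WDd and 524.5, 688.3 and 701.1 CPM in elav null, above the 225.0, 300.1 and 282.0 CPM of WT, and did not pass the test between the mutants (edgeR adjusted p = 0.516). Sxl, the female switch gene, and msl-2, the male dosage compensation gene, were not called (edgeR adjusted p = 0.274 and 0.261). Of 16 genes of this list 3 were higher (mle, her and fru) and 1 lower, roX2. These made up 18.8% and 6.25% of the list, beside 11% and 5.83% of all genes tested. The number higher fell to 0 without WDd 2 or 3 and to 1 without WDd 1, null 1 or null 3.

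The remaining lists were small, and their calls are given beside 16.8% of all genes tested. Of 24 cell cycle genes 2 were higher, stg and E2f1, with 0 to 3 when 1 library was left out (0 without null 1, and 1 without WDd 1, WDd 2 or null 2). Of 19 cell death genes 1 was higher, the TNF receptor gene wgn (log2 fold change 1.24 ± 0.19 SE at an edgeR adjusted p = 0.000498), and 2 were without null 2. Of 17 fat body genes tested 1 was higher, the lipid droplet gene Lsd-1 (1.32, edgeR adjusted p = 0.00575), and 2 lower, bmm and Mtp. The lower count was 1 without WDd 1, 2 or 3 or null 3, and 2 were higher without null 2. Of 14 maternal and yolk cell genes 1 was higher, gcl (0.72, 0.027), with 0 without any elav WDd replicate or null 3 and 2 without null 2. Of 18 male germline genes 4 were tested and 1 was lower, betaTub85D (−1.89, 0.0484), a call lost without WDd 1, 2 or 3, null 1 or null 3.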

How the data were processed

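RNA-seq was measured in 12 libraries, 3 in each of 4 groups. The authors deposited raw read counts for 17561 genes. Per the submitters' processing notes, dm6 was the build, and the tools included STAR 2.7.11a, Trim Galore 0.6.7, DESeq2 1.40.2 and featureCounts 2.0.8. The settings for strand and for reads with several matches are not given in the sources used here. All 17561 gene numbers matched the RefSeq table of that assembly, which gave symbols and positions. Of the 144 genes named by rule, 55 (38.2%) overlap the span of another gene, so their reads cannot be assigned with certainty.

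Counts were scaled with TMM factors, filtered with filterByExpr (14031 genes tested), and tested two-sided with the quasi-likelihood F test of edgeR 4.0.16 under R 4.3.3, all 12 libraries in 1 model with group as the only term. The biological coefficient of variation came to 0.595 in common, with 5.36 prior degrees of freedom. Benjamini-Hochberg adjustment ran over all genes tested, and called means an adjusted p under 0.05. Levels are TMM-scaled CPM, which do not correct for gene length, and are compared only within a gene or a fixed list. The test was repeated with 11 libraries, without elav null replicate 3. The 4 groups share 1 estimate of the spread, which rests also on the double null and WT libraries.

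Members of the comparison and the 39 gene lists were chosen with earlier results of these data known, so list counts are descriptions and no list was tested. The genes named were the 3 of the ELAV family and the 10 called genes with the highest and the 10 with the lowest fold changes (at least 5 CPM, same call without elav null replicate 3, no overlap, a symbol). Up to 3 called members per list and direction by p (at least 1 CPM), the heat shock list, w, Setd3, roX1, roX2, Sxl, msl-2 and fixed cell type markers were added. A fold against a group without counts uses 3 counts over that group and covers counting error only.

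Simulated counts, tested in 13109 genes, were drawn from the fitted dispersions with the same mean in every group. A small part of the genes of at least 1 CPM was then changed in elav WDd, equally often up and down. The test recovered 33% of genes changed 2-fold and 77% of those changed 4-fold, and 1.79% of the calls there were false. The data held many more calls, unequal in direction, so 1.79% is not an error rate for the calls reported. Alternatives were DESeq2 1.42.0, RLE factors, a fit of the 6 libraries compared alone, no filter on low counts, robust dispersion, a replicate block, a 2-fold minimum and each library left out. Splicing and poly(A) sites were not analysed here. Tables and figures used Python 3.11.15 with pandas 2.3.3, numpy 2.4.6 and matplotlib 3.10.9.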

Additional observations from a re-analysis of the deposited data

How the results depend on the processing

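The number of genes called in elav WDd against elav null lay between 1443 and 2467 when 1 of the 6 libraries was left out (957 to 1601 higher and 486 to 866 lower), lowest without elav WDd replicate 3. DESeq2 called 1552 lower, and a 2-fold minimum left 1535 genes, 478 of them lower, by its own construction. For the DESeq2 count the cause was not tested. RLE factors (2374), no low-count filter (2211), only the 6 libraries compared (1738, and 2763 without elav null replicate 3), and robust dispersion (2308) gave totals within 1.5 times the 2356 reported. Whether replicate numbers pair the samples is not stated. Deviations of same-numbered libraries from their group means correlated at r = 0.0448, 0.105 and 0.00403. Pairs with different numbers lay between −0.0836 and 0.0483, the latter for elav WDd replicate 3 with elav null replicate 1. With 3 libraries per group, values this small cannot decide the question. With the replicate number as a block, 2123 genes were called (1428 higher and 695 lower), and 2116 without elav null replicate 3 (1402 higher and 714 lower). Of the 144 named genes, 136 kept their side of the threshold under the block, 133 under RLE factors, 123 with only the 6 libraries compared, and 115 without elav WDd replicate 3, the fewest. Signs turned for CG4456, at 0.14 without elav WDd replicate 1 and 5.96 without elav null replicate 2 (−2.02 to 5.96 over the 6 libraries left out), and for l(2)efl, at −0.07 without elav null replicate 3 (−0.07 to 1.66 over those 6) and −0.08 with only the other 5 libraries compared, and neither gene was called in the fit reported. The depth of 22491041 counts in elav null replicate 3 limits the detection of genes under 0.139 CPM there.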

Other observations

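In a run of neighbouring genes on the X chromosome, elav WDd had few counts or none. It was noticed after the values were seen. From w to CG3588 (X: 2790599 to 2924426, dm6, 133.8 kb), 7 genes in a row were tested. Of these, 5 were called lower in elav WDd than in elav null, and the highest elav WDd mean was 1.34 CPM. In 3 of the 7 (w, CG14419 and CG3588) every elav WDd library lay below all 9 other libraries. The other 4 (CG14416, CG14417, CG14418 and CG3526) had no count in elav WDd and were low in every group, with means of 0.147 to 1.21 CPM in elav null, 0.548 to 1.08 CPM in the double null and 0.188 to 0.608 CPM in WT, and each also had 0 CPM in some other library. CG3588 (CG3588, X: 2919770 to 2924426) had 1.96, 2.06 and 0 CPM in elav WDd and 1108, 782.4 and 1424 CPM in elav null, beside 1424, 1576 and 1123 CPM in the double null, with WT at 732.4, 530.3 and 842.2 CPM (log2 fold change −9.68 ± 0.99 SE at an edgeR adjusted p = 3.21e-05). CG14419 (CG14419, X: 2885186 to 2885914) had 0.101, 0.356 and 0 CPM in elav WDd and 66.7, 41.2 and 75.6 CPM in elav null, beside 83.2, 92.9 and 88.6 CPM in the double null, with WT at 99.4, 68.8 and 74.5 CPM (log2 fold change −8.60 ± 0.64 SE at an edgeR adjusted p = 2.87e-06). Both genes were also lower in elav WDd than in WT (edgeR adjusted p = 0.00223 and 3.58e-05), whereas w did not pass that test (0.411). On the near side, CG32795, the gene before w, had 183.5, 149.1 and 193.6 CPM in elav WDd and 129.3, 125.3 and 111.4 CPM in elav null (log2 fold change 0.52 ± 0.15 SE at an edgeR adjusted p = 0.033). On the far side, the 3 genes next to CG3588 were also low in elav WDd without passing the test. CG14424 averaged 0.0268 CPM in elav WDd and 0.702 CPM in elav null, CG32793 averaged 0.434 CPM in elav WDd and 1.95 CPM in elav null, and CG3598 averaged 0.0176 CPM in elav WDd and 0.896 CPM in elav null (edgeR adjusted p = 0.201, 0.0656 and 0.105), so the low stretch has no sharp end there. The next 4 genes tested had means of at most 1.67 CPM in any group. Beyond them, CG3603 had 10.3, 6.32 and 10.5 CPM in elav WDd and 11.6, 8.78 and 5.53 CPM in elav null (log2 fold change 0.06 ± 0.34 SE at an edgeR adjusted p = 0.932) and kirre had 17.3, 20.8 and 19.7 CPM in elav WDd and 18.0, 26.2 and 38.4 CPM in elav null (log2 fold change −0.51 ± 0.26 SE at an edgeR adjusted p = 0.212).

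Chromosome 4, the small dot chromosome, held more calls in 1 direction than the other arms, as was also noticed after the values were seen. Of its 100 genes tested 26 were higher and 0 lower in elav WDd, with a median log2 fold change of 0.48, beside 11% higher and 5.83% lower of all genes tested and a median of 0.07 over all genes tested and 0.02 to 0.14 on the other arms. The number higher was 13 without elav WDd replicate 3 and lay between 17 and 31 in the other fits run. The muscle gene bt is 1 of these genes.

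Gene families were also counted after the values were seen, beside 11% higher and 5.83% lower of all genes tested. Of 83 cytochrome P450 genes tested 13 were higher and 15 lower, of 35 UDP-glycosyltransferase genes 9 and 2, and of 35 glutathione S-transferase genes 7 and 7. Of 24 serpin genes 1 was higher and 6 were lower, of 31 tetraspanin genes 7 and 3, and of 23 Osiris genes 2 and 0. Of 38 odorant-binding protein genes 2 were higher and 3 lower, of 44 gustatory receptor genes 0 and 2, of 13 mucin-like genes 2 and 2, and of 17 tRNA synthetase-like genes 1 and 1. FDY (CG41503, Y: 3022289 to 3024026), a gene of the Y chromosome, had 13.2, 9.97 and 6.87 CPM in elav WDd and 0, 0.594 and 0 CPM in elav null (log2 fold change 5.61 ± 1.41 SE at an edgeR adjusted p = 0.0145), beside 3.69, 4.26 and 0.528 CPM in WT. Without null 3 the log2 fold change was 5.15 (edgeR adjusted p = 0.0232). This is a single gene, and the sex of the embryos is not given.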
